A study of Homo sapiens with 16 samples.

Results

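Amino acids cross the plasma membrane on carriers of the solute carrier (SLC) families, and 10 of these genes were followed across the drug treatments of 2 thyroid carcinoma cell lines. The set holds *SLC7A11*, *SLC7A5*, *SLC3A2*, *SLC1A1*, *SLC1A4*, *SLC1A5*, *SLC7A1*, *SLC38A1*, *SLC38A2* and *SLC6A9*, taken by gene symbol from a table of 25369 genes, and all 10 were measured and passed the filter on low values in both lines. TPC1 and K1 are established human papillary thyroid carcinoma lines, K1 being derived from the GLAG-66 line, and each is 1 line. TPC1 was grown in RPMI and K1 in DMEM. Cells of each line received 0.2% DMSO as vehicle, 10 µM nutlin-3a (nutlin, an inhibitor of MDM2), 25 µM GSK2830371 (an inhibitor of the phosphatase PPM1D, also called WIP1) or both drugs for 24 h, so that the drug-treated groups were compared with vehicle from the same line. Polyadenylated RNA was sequenced from 2 libraries per group, 16 in all. The study describes its replicates, for all experiments together, as biological ones made independently of each other. The question addressed here is how transcripts of amino acid carriers stood after inhibition of MDM2, of PPM1D and of both.

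The carriers divide by what they move. SLC7A11 imports cystine in exchange for glutamate and supplies the cysteine of glutathione. SLC7A5 (LAT1) exchanges large neutral amino acids such as leucine. Both need the single-pass glycoprotein SLC3A2 (4F2hc, CD98) as heavy chain to reach the cell surface. SLC1A1 (EAAT3) takes up glutamate, aspartate and cysteine. SLC1A4 (ASCT1) and SLC1A5 (ASCT2) exchange small neutral amino acids including serine and, for SLC1A5, glutamine. SLC7A1 (CAT1) carries arginine and lysine, SLC38A1 and SLC38A2 (SNAT1 and SNAT2) are sodium-coupled carriers of glutamine and alanine, and SLC6A9 (GLYT1) takes up glycine. Many of these genes are textbook targets of ATF4, the transcription factor whose translation rises when eIF2α is phosphorylated in the integrated stress response, and *SLC7A11* is also a known target of NRF2.

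On GRCh37 the genes, exons and introns together, lie as follows. *SLC7A11* spans chr4:139085251-139163503, *SLC7A5* chr16:87863629-87903113 and *SLC1A5* chr19:47278140-47291851, all on the minus strand. *SLC3A2* spans chr11:62623476-62656352, *SLC1A1* chr9:4490468-4587469 and *SLC1A4* chr2:65215611-65250999, all on the plus strand. *SLC7A1* spans chr13:30083551-30169825, *SLC38A1* chr12:46576846-46663800, *SLC38A2* chr12:46751971-46766556 and *SLC6A9* chr1:44457172-44497139, all on the minus strand. *SLC38A1* and *SLC38A2* are thus near each other on the same chromosome. No other gene of the table shares exon sequence on the same strand with any of the 10. *SLC7A5* has near-identical pseudogene copies, *SLC7A5P1* and *SLC7A5P2*, which took at most 0.478% and 2.68% of its count in any library, so reads from the shared stretches make its count uncertain by an unknown amount.

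TPC1 libraries totalled 30789887 to 76648552 counts and K1 libraries 28888686 to 37161241, and the lowest count of any of the 10 genes in a library was 53. Thyroid markers were partly present: *TG*, *PAX8* and *FOXE1* were above 1 CPM in both lines (CPM, the count scaled to the size of its library, with TMM factors over the 16 libraries), *TSHR* had no count in either and *NKX2-1* none in TPC1. The 4 leukocyte markers summed to at most 0.299 CPM. The 5 fibroblast-associated genes, of which *COL1A1*, *LUM* and *PDGFRB* were above 1 CPM, moved with treatment in TPC1, from 21.3 to 22.8 CPM summed in DMSO through 11.3 to 11.8 after nutlin and 12.3 to 12.9 after GSK2830371 to 4.80 to 6.71 after both, while in K1 they stayed between 12.9 and 17.6 CPM. Of the 4 epithelial genes, keratins and *EPCAM*, only *KRT8* and *KRT18* were above 1 CPM in either line. The 4 together summed to 770 to 923 CPM in the TPC1 DMSO libraries and to 429 to 506 CPM after both drugs. The K1 sums were 1147 to 1225 and 886 to 962 CPM. The part of these shifts in the results below was not tested.

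In untreated cells the carriers covered a wide range of levels. Per kilobase of the canonical transcript, *SLC7A5* was the most abundant of the 10 in TPC1, at 588 ± 42.5 CPM per kb (mean ± SD, n = 2), followed by *SLC3A2* at 301 ± 11.4 and *SLC1A5* at 151 ± 1.68. K1 had another order, with *SLC1A5* at 108 ± 9.89 CPM per kb, *SLC3A2* at 90.3 ± 4.67, *SLC7A1* at 53.9 ± 0.850, *SLC38A2* at 49.5 ± 5.30 and *SLC7A5* at 37.7 ± 11.6. The lowest in both lines was *SLC1A1*, at 0.828 ± 0.0497 CPM per kb in TPC1 and 1.29 ± 0.187 in K1. *SLC7A11*, *SLC1A4* and *SLC6A9* were between 3.54 and 8.68 CPM per kb in the DMSO groups of both lines. The DMSO libraries held 2816 and 2542 CPM of *SLC7A5* in TPC1 against 134 and 209 CPM in K1, and 552 and 583 CPM of *SLC3A2* against 164 and 176 CPM.

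**Figure D1:**
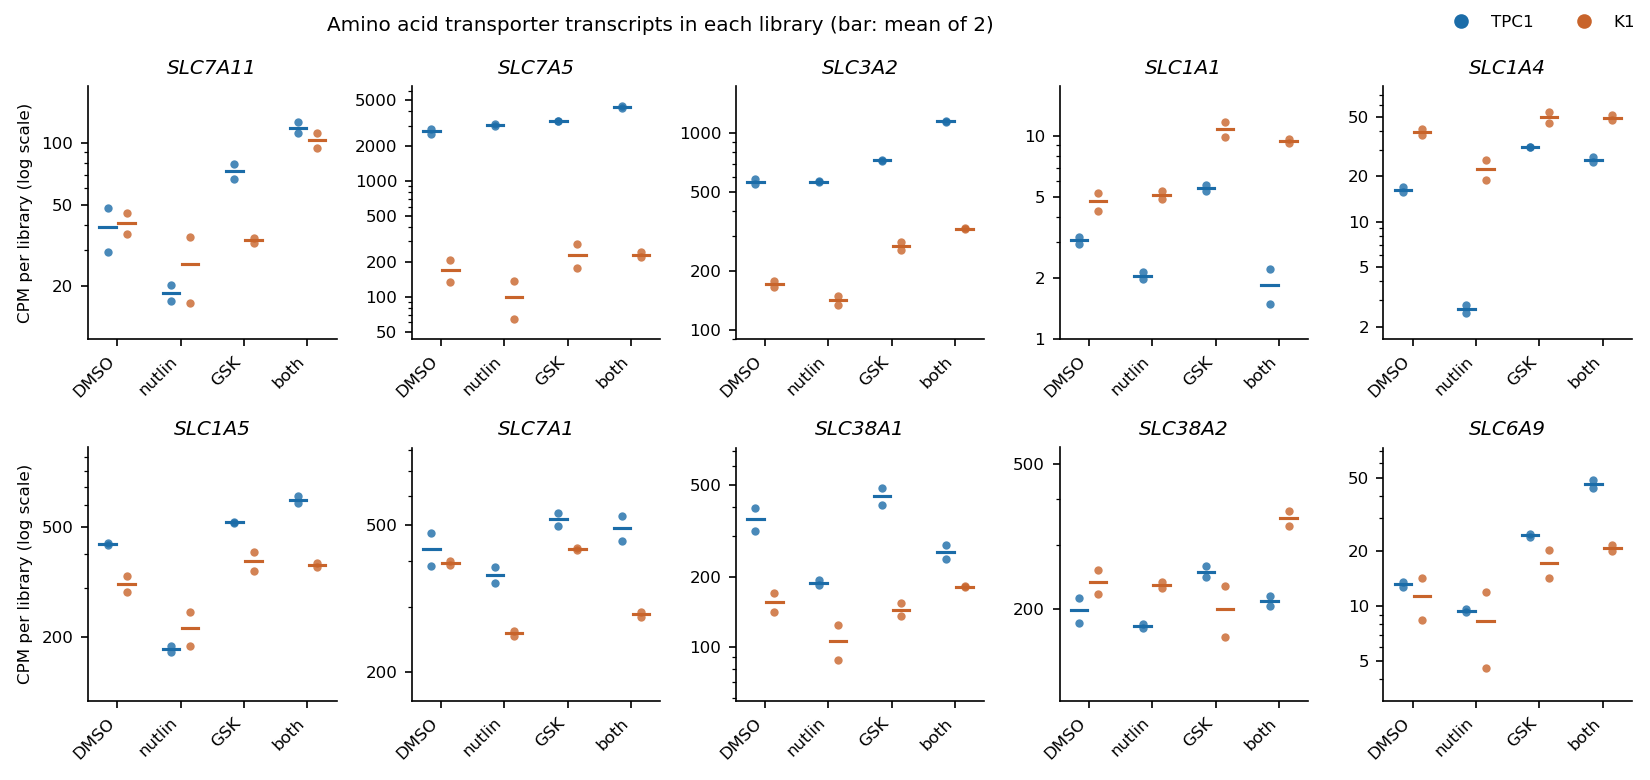
Level of each transporter in each library, as CPM on a log axis with its own range in every panel, for DMSO, nutlin, GSK2830371 (GSK) and both drugs. Points are libraries (TPC1 blue, K1 orange) and bars are the means of 2. *SLC7A11* reached its highest level after both drugs in TPC1 (126 and 111 CPM) and K1 (94.3 and 111 CPM).

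Nutlin alone lowered *SLC1A4*, *SLC1A5*, *SLC38A1*, *SLC7A11* and *SLC1A1* in TPC1. Of the 10 genes, 5 were lowered and 0 raised at an adjusted p under 0.05 and a fold change over 1.5, the thresholds used throughout (edgeR quasi-likelihood test with Benjamini-Hochberg adjustment over the 15273 genes tested). Over all genes 18.0% were lowered and 17.5% raised, and 0 of the 10 had an unadjusted p under 0.05 with a rise, nor did DESeq2 call any raised. *SLC1A4* held 16.9 and 15.7 CPM in DMSO and 2.80 and 2.47 CPM after nutlin, a level 0.156 times that of DMSO (log2 fold change -2.68 ± 0.11 SE, adjusted p = 1.1e-07). *SLC1A5*, from the same family, went from 438 and 431 CPM to 186 and 176 CPM (log2 fold change -1.30 ± 0.08, adjusted p = 1e-06). Neither pair of ranges came near overlapping. For *SLC38A1* the libraries moved from 397 and 317 CPM to 193 and 184 CPM (log2 fold change -0.96 ± 0.14, adjusted p = 0.00037). The cystine importer *SLC7A11* fell from 48.2 and 29.4 CPM to 20.3 and 16.9 CPM (log2 fold change -1.10 ± 0.23, adjusted p = 0.0026), with DMSO libraries that themselves stood far apart. *SLC1A1*, with few counts, went from 2.93 and 3.19 CPM to 1.96 and 2.14 CPM (log2 fold change -0.61, adjusted p = 0.023).

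The other 5 carriers were not called in TPC1 after nutlin. *SLC6A9* was at 9.64 and 9.24 CPM against 12.7 and 13.6 CPM in DMSO (log2 fold change -0.51, adjusted p = 0.0012), below the fold threshold. The heavy chain *SLC3A2* was at 572 and 564 CPM against 552 and 583 CPM (log2 fold change -0.03), and its light chain *SLC7A5* at 3134 and 2960 CPM against 2816 and 2542 CPM (log2 fold change 0.15). *SLC7A1* and *SLC38A2* had log2 fold changes of -0.27 and -0.18. The call for *SLC1A1* was lost without DMSO library 3 (log2 fold change -0.55, adjusted p = 0.098), nutlin library 1 (-0.56, adjusted p = 0.095) or nutlin library 3 (-0.68, adjusted p = 0.077) in the edgeR fit, and the value was under the fold threshold with GC content and length offsets (-0.50).

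In K1 nutlin lowered 3 of the 10 genes and raised 0 (edgeR, over all genes 5.43% lowered and 3.84% raised, with 0 rises at an unadjusted p under 0.05 and 0 by DESeq2). The arginine carrier *SLC7A1* went from 400 and 391 CPM to 251 and 259 CPM, the tightest of the K1 responses (log2 fold change -0.63, adjusted p = 4.5e-07). *SLC1A4* went from 37.8 and 41.5 CPM to 25.5 and 19 CPM (log2 fold change -0.83, adjusted p = 9.9e-05). For *SLC7A11* the K1 libraries held 36.1 and 45.5 CPM in DMSO and 34.7 and 16.6 CPM after nutlin (log2 fold change -0.68, adjusted p = 0.034). The nutlin libraries of *SLC7A11* thus differed by a larger factor than the group means did. *SLC1A5* (log2 fold change -0.53, adjusted p = 0.0022) and *SLC38A1* (-0.57, adjusted p = 0.004) passed the p threshold but not the fold threshold, and *SLC7A5* (-0.78, adjusted p = 0.053) the reverse. Nutlin library 2 carried the lower values of *SLC7A11*, *SLC7A5*, *SLC3A2*, *SLC1A4*, *SLC1A5*, *SLC38A1* and *SLC6A9*. Leaving it out put *SLC7A11* at -0.23 (adjusted p = 0.28), leaving out nutlin library 1 put it at -1.30 and raised the count of lowered genes from 3 to 7, leaving out DMSO library 1 raised that count to 6, and without DMSO library 2 *SLC7A11* was at -0.50 (adjusted p = 0.19). DESeq2 did not call *SLC7A11* either (adjusted p = 0.22). With all libraries of the compared groups kept, edgeR also lost the call under other settings. These were library size alone as scale (adjusted p = 0.053) and GC content and length offsets (-0.57, adjusted p = 0.057). Fitting only the compared groups lost it too (adjusted p = 0.051).

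GSK2830371 alone raised *SLC1A4*, *SLC6A9* and *SLC1A1* in TPC1 and *SLC1A1* and *SLC3A2* in K1. In TPC1 3 of the 10 were raised and 0 lowered (edgeR; 0.720% of all genes were raised and 0.681% lowered, and 0 of the 10 fell at an unadjusted p under 0.05 or by DESeq2). *SLC1A4* rose from 16.9 and 15.7 CPM to 31.2 and 31.4 CPM (log2 fold change 0.95, adjusted p = 0.0033). The glycine transporter *SLC6A9* rose from 12.7 and 13.6 CPM to 24.6 and 23.9 CPM (log2 fold change 0.89, adjusted p = 0.0033). *SLC1A1* rose from 2.93 and 3.19 CPM to 5.76 and 5.35 CPM (log2 fold change 0.85, adjusted p = 0.039), and its call was lost without any 1 of DMSO libraries 1 and 3, GSK2830371 libraries 1 and 3, or nutlin libraries 1 and 3, at adjusted p of 0.079 to 0.23, and when only the compared groups were fitted (adjusted p = 0.056). *SLC7A11* stood at 79.2 and 66.7 CPM, above both DMSO libraries, yet just missed the threshold (log2 fold change 0.92, adjusted p = 0.058). It passed with the replicate number as a block (0.95, adjusted p = 2.2e-05), by DESeq2 (0.90, adjusted p = 0.00013), and without DMSO library 1 (1.34, adjusted p = 0.02).

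In K1 GSK2830371 raised *SLC1A1* and *SLC3A2*, 2 of the 10, and lowered 0 (edgeR; 0.736% of all genes were raised and 1.5% lowered, with 1 of the 10 falling at an unadjusted p under 0.05 and 0 by DESeq2). *SLC1A1* went from 5.25 and 4.27 CPM to 9.92 and 11.8 CPM (log2 fold change 1.19 ± 0.13, adjusted p = 0.00027). *SLC3A2* went from 164 and 176 CPM to 280 and 254 CPM (log2 fold change 0.65, adjusted p = 0.00018), and fell under the fold threshold without GSK2830371 library 1 (0.58) or with offsets for GC content and length (0.52). *SLC7A11*, at 34.4 and 32.7 CPM, lay below both DMSO libraries (log2 fold change -0.29, adjusted p = 0.41). *SLC38A2* was split, with 167 CPM in one GSK2830371 library and 231 CPM in the other against 255 and 220 CPM in DMSO.

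**Figure D2:**
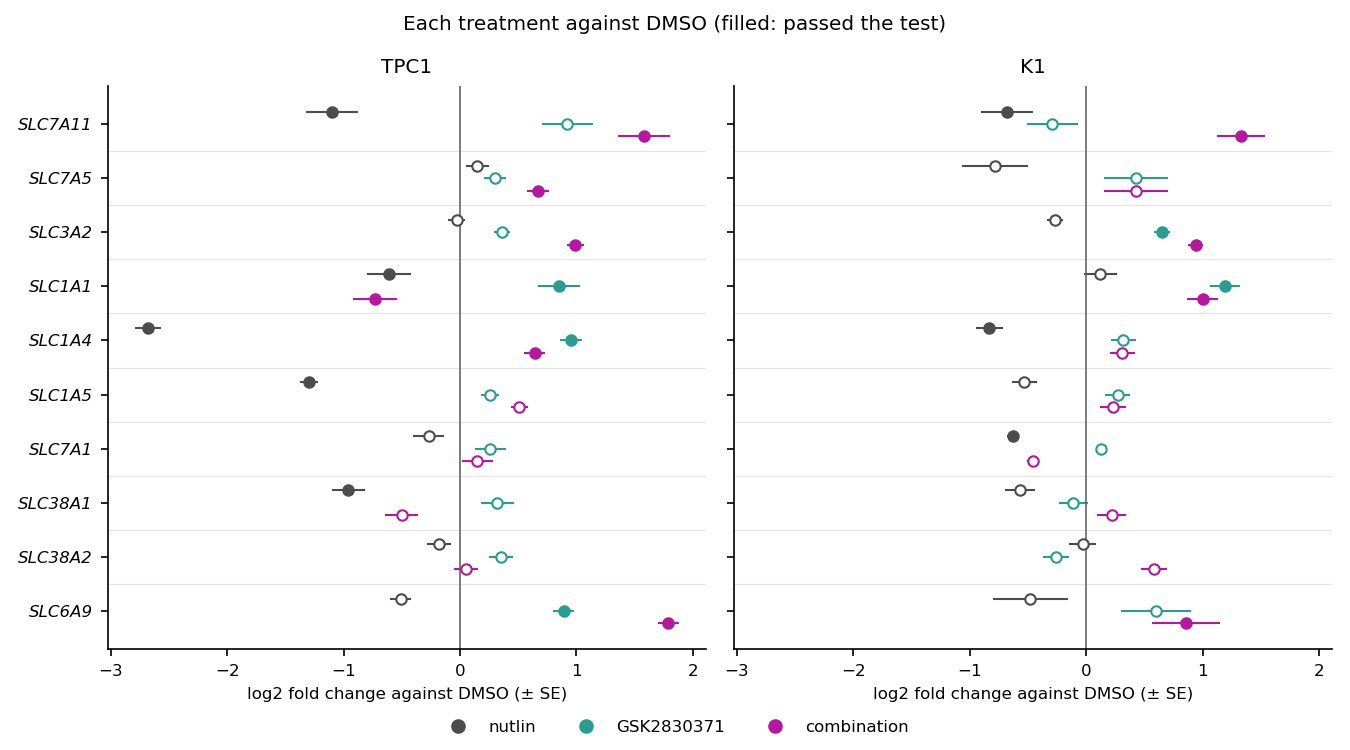
Log2 fold change of each transporter against DMSO in TPC1 (left) and K1 (right) after nutlin, GSK2830371 or both, with SE bars. Filled points passed both thresholds. The 3 treatments share the 2 DMSO libraries of their line, and *SLC7A11* lies left of 0 after nutlin (-1.10 and -0.68) and right of it after both drugs (1.58 and 1.33).

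With both drugs *SLC7A11*, *SLC3A2* and *SLC6A9* stood above DMSO in each line. In TPC1 the combination raised 5 of the 10 genes above DMSO and lowered 1 (edgeR; 22.5% of all genes were raised and 21.7% lowered). *SLC7A11* reached 126 and 111 CPM, 2.99 times its DMSO level (log2 fold change 1.58, adjusted p = 0.0002). *SLC6A9* reached 48.7 and 44 CPM, a log2 fold change of 1.79 with an adjusted p of 2e-07. *SLC3A2* rose to 1142 and 1162 CPM (log2 fold change 0.99) together with *SLC7A5*, at 4414 and 4286 CPM (0.67), so that both chains of the LAT1 heterodimer were above all other TPC1 groups. *SLC1A4* rose to 26.9 and 24.8 CPM (0.64), and dropped under the fold threshold without DMSO library 3 or combination library 1 (0.58 each). *SLC1A1* was the exception, at 1.49 and 2.20 CPM (log2 fold change -0.73, adjusted p = 0.0084), and was under the fold threshold without combination library 1 (-0.51). *SLC38A1* was lower by less than the fold threshold (-0.50, adjusted p = 0.011) and passed it without DMSO library 3 (-0.66) or without combination library 1 (-0.62).

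In K1 the combination raised 4 of the 10 above DMSO and lowered 0 (edgeR; 7.62% of all genes were raised and 8.09% lowered, with 1 fall among the 10 at an unadjusted p under 0.05 and 0 by DESeq2). *SLC7A11* reached 94.3 and 111 CPM, 2.52 times its DMSO level (log2 fold change 1.33, adjusted p = 0.00015). *SLC3A2* rose to 329 and 326 CPM (0.94, adjusted p = 8.2e-08) and *SLC1A1* to 9.25 and 9.74 CPM (1.00, adjusted p = 3.1e-05). The rise of *SLC6A9* to 21.4 and 20 CPM (0.86, adjusted p = 0.028) rested on single libraries, and was not called without DMSO library 1 (0.54, adjusted p = 0.2), combination library 1 (0.81, adjusted p = 0.12) or combination library 2 (0.91, adjusted p = 0.073), nor by DESeq2 (0.87, adjusted p = 0.22). *SLC38A2* rose by just under the fold threshold (0.58, adjusted p = 0.0009) and passed it without DMSO library 1 (0.69) or combination library 1 (0.64), and with library size alone as scale (0.61) or GC content and length offsets (0.67). *SLC7A1* stayed at its nutlin-like level, 282 and 291 CPM, below the DMSO libraries (-0.46, adjusted p = 4.5e-06, under the fold threshold).

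Adding GSK2830371 to nutlin raised *SLC7A11*, *SLC3A2*, *SLC1A4*, *SLC1A5* and *SLC6A9* in both lines. In TPC1 5 of the 10 were raised and 0 lowered, where 6.46% of all genes were raised and 5.66% lowered (edgeR; no fall had an unadjusted p under 0.05 or a DESeq2 call). The largest was *SLC1A4*, from 2.80 and 2.47 CPM after nutlin to 26.9 and 24.8 CPM after both drugs (log2 fold change 3.32 ± 0.11, adjusted p = 1.2e-06). *SLC7A11* rose 6.43-fold (log2 fold change 2.69 ± 0.23, adjusted p = 0.00011), *SLC6A9* 4.94-fold (2.31 ± 0.09, adjusted p = 1.8e-06) and *SLC1A5* to 3.5 times its nutlin level, from 186 and 176 CPM to 611 and 648 CPM (1.81 ± 0.08, adjusted p = 2.6e-06). *SLC3A2* rose 2.04-fold (1.03, adjusted p = 4e-05). In contrast *SLC7A5* (0.52, adjusted p = 0.0044), *SLC38A1* (0.45, adjusted p = 0.043) and *SLC7A1* (0.43, adjusted p = 0.041) were higher by less than the fold threshold, and *SLC38A2* (0.23) and *SLC1A1* (-0.12) did not pass either threshold.

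In K1 the same comparison raised 9 of the 10 and lowered 0, where 1.16% of all genes were raised and 1.52% lowered (edgeR; no fall had an unadjusted p under 0.05 or a DESeq2 call, and DESeq2 called 7 raised). The exception was *SLC7A1*, at 282 and 291 CPM against 251 and 259 CPM after nutlin (log2 fold change 0.17, adjusted p = 0.042). *SLC7A11* rose most, from 34.7 and 16.6 CPM to 94.3 and 111 CPM (2.01, adjusted p = 0.00012). The 4F2 heavy chain *SLC3A2* rose from 149 and 134 CPM to 329 and 326 CPM (1.21, adjusted p = 6e-07) and *SLC1A4* from 25.5 and 19 CPM to 51 and 47.3 CPM (1.14, adjusted p = 7.9e-05). *SLC1A1* (0.88), *SLC38A1* (0.78), *SLC1A5* (0.76) and *SLC38A2* (0.61) followed. *SLC6A9* (1.34, adjusted p = 0.013) and *SLC7A5* (1.21, adjusted p = 0.014) had nutlin libraries that differed more than 2-fold, 12 against 4.58 CPM and 136 against 64.3 CPM. Without nutlin library 2 the count fell from 9 to 5, with *SLC6A9* at 0.79 (adjusted p = 0.14), *SLC7A5* at 0.76 (adjusted p = 0.16), *SLC1A5* at 0.57 and *SLC38A1* at 0.55. Without nutlin library 1, *SLC6A9* was at 2.18, *SLC7A5* at 1.85, *SLC7A11* at 2.63 and *SLC38A2* at 0.58, under the fold threshold. *SLC6A9* and *SLC7A5* also lost their call without combination library 1 (adjusted p = 0.081 and 0.091) or 2 (adjusted p = 0.06 and 0.056), and *SLC38A2* without combination library 2 (0.54) or with GC content and length offsets (0.57). By DESeq2 *SLC6A9* (adjusted p = 0.11) and *SLC7A5* (adjusted p = 0.093) were the pair not called.

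The interaction asks whether the nutlin effect with GSK2830371 present differed from that without it. In TPC1 it was positive and called for 5 of the 10 (edgeR; 2.82% of all genes positive, 3.50% negative): *SLC1A4* (log2 2.37, adjusted p = 0.00022), *SLC7A11* (1.77, adjusted p = 0.012), *SLC1A5* (1.54, adjusted p = 0.00026), *SLC6A9* (1.42, adjusted p = 0.00084) and *SLC3A2* (0.67, adjusted p = 0.006). None was called negative, and 1 had an unadjusted p under 0.05. That 1 was *SLC1A1* (-0.97, adjusted p = 0.057), which DESeq2 did not call and which passed with the replicate block (-0.95, adjusted p = 0.0096). Its level was highest after GSK2830371 alone, and the ranges after nutlin and after both drugs overlapped. Without nutlin library 3, *SLC7A11* (1.63, adjusted p = 0.066) and *SLC3A2* (0.65, adjusted p = 0.055) were not called, and *SLC7A11* was not called without GSK2830371 library 3 either (1.63, adjusted p = 0.051). Without combination library 3, *SLC1A1* was called negative (-1.30, adjusted p = 0.031).

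In K1 the interaction was positive and called for 4 of the 10 and negative for 0 (edgeR; 1.79% and 0.654% of all genes, with 0 negative at an unadjusted p under 0.05 and 0 by DESeq2). *SLC7A11* had the largest value (log2 2.30, adjusted p = 0.0036), followed by *SLC38A1* (0.90, adjusted p = 0.013), *SLC38A2* (0.86, adjusted p = 0.01) and *SLC1A4* (0.83, adjusted p = 0.012). Neither drug alone raised *SLC7A11* in K1 and both together did. *SLC3A2*, called in TPC1, passed the p threshold in K1 but not the fold threshold (0.56, edgeR adjusted p = 0.0079). It passed both with library size alone as scale (0.61) or with GC content and length offsets (0.73). Leaving out DMSO, GSK2830371 or nutlin library 1 put it at 0.62, 0.64 or 0.65. The calls for *SLC38A1*, *SLC38A2* and *SLC1A4* were lost without nutlin library 2 (adjusted p = 0.074, 0.077 and 0.077) and without combination library 2 (adjusted p = 0.066, 0.062 and 0.054), which left 1 called gene, *SLC7A11*, while leaving out nutlin library 1 gave 8. With GC content and length offsets *SLC38A1* (0.71, adjusted p = 0.082) and *SLC38A2* (0.55) were not called.

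**Figure D3:**
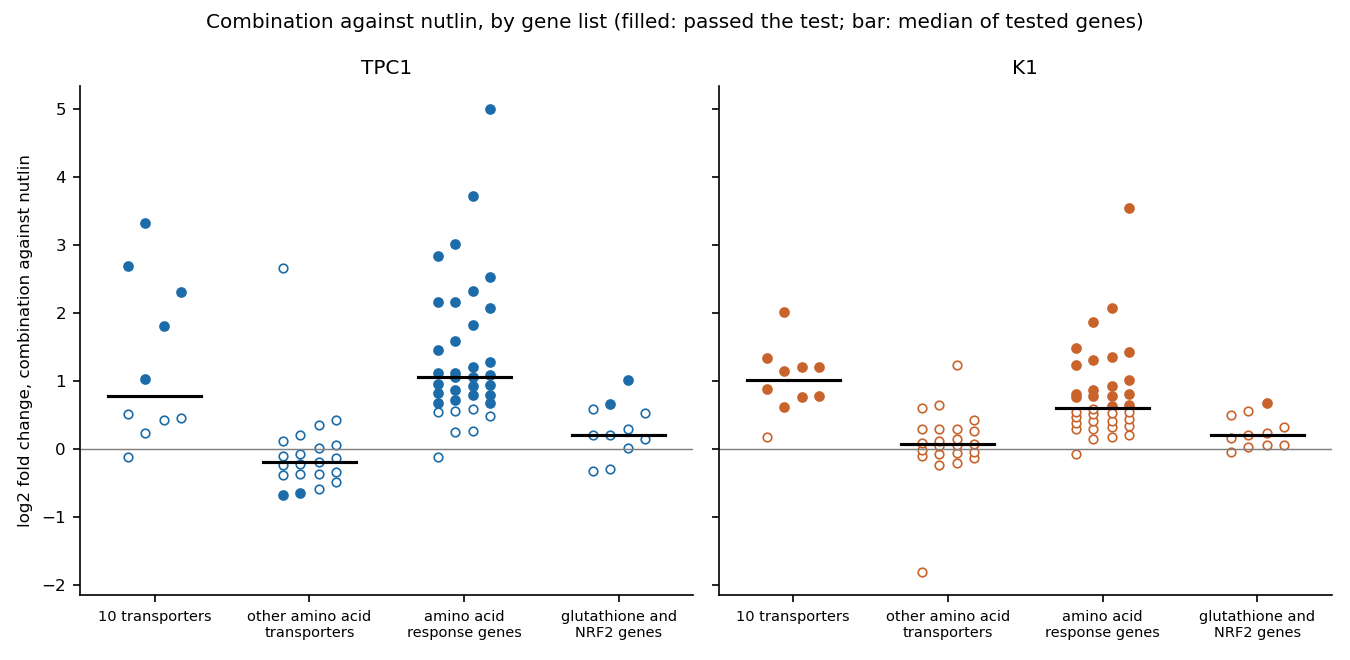
Log2 fold change of the combination against nutlin in TPC1 (left) and K1 (right) for the 10 transporters and 3 other gene lists. Points are the genes tested, filled where they passed both thresholds, and bars are list medians, which for the 10 transporters were 0.77 in TPC1 and 1.01 in K1.

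None of the other amino acid carriers tested was called higher when GSK2830371 was added to nutlin. Of a further 39 SLC and lysosomal amino acid transporter genes, 21 were tested in TPC1 and 23 in K1. In the combination against nutlin 0 of them were raised and 2 lowered in TPC1 (*SLC7A2*, log2 fold change -0.68, and *SLC38A6*, -0.65), and 0 were raised or lowered in K1 (edgeR). Of all genes 6.46% were raised and 5.66% lowered in TPC1, and 1.16% and 1.52% in K1. With 21 and 23 genes tested, these counts lie near the shares of all genes. At an unadjusted p under 0.05, 1 was higher and 6 lower in TPC1 and 4 were higher and 1 lower in K1, and DESeq2 raised 0 in either line. Their median log2 fold changes were -0.20 and 0.07, against 0.77 and 1.01 for the 10 genes and 0.01 and 0.00 for all genes tested. The 10 genes and the lists were chosen with earlier results of these data known, so this contrast describes them and is not a test. After nutlin alone in TPC1 5 of the 21 rose and 4 fell, shares near those of all genes (17.5% raised and 18.0% lowered). The leucine transporter *SLC43A2* rose from 5.90 ± 1.32 to 30.7 ± 1.31 CPM (2.32), while its relative *SLC43A1* fell from 11.1 ± 0.314 to 3.82 ± 0.363 CPM (-1.59). The lysosomal *SLC38A7* rose (0.91) and the glutamate transporter *SLC1A3* fell (-0.70). In K1, where 3.84% of all genes were raised and 5.43% lowered, *SLC43A2* (0.75) and *SLC6A17* (0.64) rose after nutlin and *SLC7A2* fell (-0.61).

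Genes of the amino acid response, which include amino acid synthesis enzymes, aminoacyl-tRNA synthetases and stress regulators under ATF4, rose in the same comparison. The combination against nutlin raised 29 of 36 tested in TPC1 and 18 of 36 in K1 and lowered 0 in both (edgeR). There were 0 falls at an unadjusted p under 0.05 and 0 by DESeq2, and the medians were 1.06 and 0.60. Shares over all genes were 6.46% raised and 5.66% lowered in TPC1, and 1.16% and 1.52% in K1. *CHAC1*, which degrades glutathione, was at 10.2 ± 0.36 CPM after nutlin and 326 ± 31.4 CPM after both drugs in TPC1 (log2 fold change 5.00), and K1 went from 5.98 ± 1.38 to 69.1 ± 7.12 CPM (3.54). In TPC1 *DDIT3* (3.72), *STC2* (3.02) and *ATF3* (2.84) came next, and in K1 *ADM2* (2.08), the cysteine synthesis enzyme *CTH* (1.87) and the folate enzyme *MTHFD2* (1.43). After nutlin alone in TPC1 8 of the 36 were raised and 9 lowered, shares near the 17.5% and 18.0% of all genes. The median of the 36 was -0.38, and 24 had a negative value. At an unadjusted p under 0.05 (edgeR), 21 were lower and 9 higher. The largest called changes were rises of *SESN2* (2.54), *NUPR1* (2.13) and *ATF3* (1.69) and a fall of *STC2* (-2.41). In K1 nutlin raised 1 of the 36, *SESN2* (1.52), and lowered 3, against 3.84% and 5.43% of all genes. The 3 were *CHAC1* (-1.10), *PCK2* (-0.81) and *MTHFD2* (-0.81), which were lowered in TPC1 too (-1.44, -0.85 and -0.94).

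*ATF4* itself, per transcript and not per protein, stood at 606 to 704 CPM in TPC1 DMSO libraries, 486 to 513 after nutlin, 774 to 857 after GSK2830371 and 1022 to 1099 after both. In K1 the corresponding ranges were 375 to 411, 329 to 340, 429 to 462 and 741 to 774 CPM. The combination raised *ATF4* above nutlin by 1.09 ± 0.09 on the log2 scale (edgeR adjusted p = 8.6e-05) in TPC1, and the K1 value was 1.18 ± 0.06 (adjusted p = 3e-07). *NFE2L2*, which encodes NRF2, did not pass the threshold in that comparison in TPC1 (0.04) or K1 (0.21). Of 11 genes of glutathione synthesis and the NRF2 program, the combination raised 2 above nutlin in TPC1, *SRXN1* (1.01) and *TXNRD1* (0.66). In K1 it raised 1, *HMOX1* (0.67), and DESeq2 called 0 of the 11 raised there. Over all genes 6.46% were raised in TPC1 and 1.16% in K1. *HMOX1* was not called in that comparison in TPC1 (0.59, edgeR adjusted p = 0.089). Nutlin in TPC1 raised 2 of the 11, *HMOX1* (1.74) and *GSS* (0.60), and lowered 1, *GCLM* (-0.77), against 17.5% raised and 18.0% lowered over all genes. *MYC*, which is known to drive amino acid import, fell after nutlin in TPC1 (-1.37) and K1 (to 0.5 times its DMSO level) and did not rise past the threshold on adding GSK2830371 (0.28 and 0.23). The cell cycle inhibitor *CDKN1A* and the ubiquitin ligase gene *MDM2* rose after nutlin by 5.61 and 4.96 in TPC1 and by 3.16 and 3.05 in K1.

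The start sites of the carriers were searched for the core of the C/EBP-ATF response element bound by ATF4, TGATGNAA, on both strands, since many of these carriers are known ATF4 targets and several rose together with *ATF4*. RefSeq windows on GRCh38.p14 of 300 bases, from 250 bases before each start to 50 after, were at hand for 9 of the 10 genes (15 windows, some genes having several starts), all but *SLC7A11*. The core was in at least 1 window of 5 genes, where 4.46% of all 27305 genes and 3.62% of all 35116 windows hold it. The 5 matches are given in 30-base stretches, read 5′ to 3′ along the gene's strand, with the core in capitals. *SLC1A4* and *SLC3A2* carry it on the opposite strand, so the capitals are its reverse complement.
SLC1A4, chr2:64989381-64989410, plus strand: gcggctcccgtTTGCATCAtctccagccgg
SLC3A2, chr11:62881719-62881748, plus strand: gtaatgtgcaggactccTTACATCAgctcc
SLC38A1, chr12:46266502-46266531, minus strand: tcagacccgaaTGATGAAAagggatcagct
SLC7A1, chr13:29595663-29595692, minus strand: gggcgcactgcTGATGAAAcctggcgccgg
SLC1A5, chr19:46784893-46784922, minus strand: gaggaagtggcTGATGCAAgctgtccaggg
In *SLC1A4* the core lies from -7 to 1 relative to the start of that window, in *SLC1A5* from -97 to -90, in *SLC38A1* from -4 to 4, in *SLC7A1* from 8 to 15 and in *SLC3A2* from 38 to 45. *SLC1A5* and *SLC3A2* have 3 windows each and *SLC1A4* and *SLC38A1* have 2, and only 1 window of each held the core.

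The antioxidant response element core of NRF2, TGACNNNGC, was in a window of 4 of the 9 genes, where 16.1% of all genes and 13.3% of all windows hold it. *SLC3A2* carries both cores in the same window, and its antioxidant match is shown for comparison with the ATF match above.
SLC3A2, chr11:62881651-62881680, plus strand: acgagggtgggTGACTCAGCgtcctccttc
SLC7A5, chr16:87869491-87869520, minus strand: ggcggggttccTGACGCAGCtgcgggcggc
The other 2 matches are in *SLC7A1* and *SLC1A5*. Of the genes with an ATF core, *SLC1A4*, *SLC1A5* and *SLC3A2* were called in the combination against nutlin in both lines, *SLC38A1* in K1 and *SLC7A1* in neither, and *SLC6A9*, called in both, had no match in its window.

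Some members shared their course with named genes. Over the 16 libraries, after centring log2 (CPM + 1) within each line and among 9836 genes, *SLC1A4* and *SLC1A5* were each among the 3 genes closest to the other (Pearson r = 0.97), with *STC2* (0.98) closest to *SLC1A4* and the tRNA synthetase gene *AARS* (0.97) close to *SLC1A5*. *SLC6A9* was most like the serine synthesis gene *PSAT1* (0.98), then *GARS* and *ALDH1L2* (0.96 each). *SLC7A11* lay nearest to *APOL6* and *ALDH1L2* (0.96 each) and *CHAC1* (0.95). *SLC3A2* was most like *SLC41A1* (0.94) and *SLC7A5*, less closely, like *MPPE1* (0.84) and *PSAT1* (0.81). The remaining 4 resembled genes outside these lists, *PLEKHH3* for *SLC1A1* (0.95), *RBBP5* for *SLC7A1* (0.93), *PTER* for *SLC38A1* (0.91) and *RB1CC1* for *SLC38A2* (0.92). These values describe points that share treatments and libraries, so no p is given.

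TPC1 and K1 differed both at the start and in response. Because line and medium changed together, they cannot be told apart here. In DMSO 2 of the 10 were higher and 3 lower in K1 than in TPC1 (edgeR on all 16 libraries; 25.0% of all genes were higher and 21.2% lower). *SLC7A5* was lower in K1 by a log2 difference of -3.96 ± 0.29 (adjusted p = 3.3e-09), *SLC3A2* by -1.74 (adjusted p = 5.2e-12) and *SLC38A1*, at 141 and 171 CPM against 397 and 317 CPM, by -1.19 (adjusted p = 2e-06). *SLC1A4* was higher in K1 (1.29, adjusted p = 4.9e-08), and *SLC1A1* was higher (0.62, adjusted p = 0.0028) but not called without K1 DMSO library 1 (0.47) or TPC1 DMSO library 1 (0.57).

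The nutlin response differed between the lines for 3 called genes, each with the higher value in K1, and for 0 in the other direction (edgeR; 8.73% and 10.5% of all genes, with 3 of the 10 lower in K1 at an unadjusted p under 0.05 and 0 by DESeq2). They were *SLC1A4* (K1 minus TPC1 1.81 ± 0.19, adjusted p = 2.1e-06), *SLC1A5* (0.73, adjusted p = 0.0018) and *SLC1A1* (0.69, adjusted p = 0.038), all of the SLC1 family. For *SLC1A1* the call was lost without any 1 of 8 libraries, at adjusted p of 0.05 to 0.15, namely TPC1 DMSO library 3, TPC1 nutlin libraries 1 and 3, K1 DMSO library 2, both K1 nutlin libraries and both K1 combination libraries, and for *SLC1A5* without K1 nutlin library 1 (0.51, under the fold threshold). *SLC7A5* pointed the other way without being called (-0.96, adjusted p = 0.058), and was called without K1 nutlin library 1 (-1.60, adjusted p = 0.0015), K1 DMSO library 1 (-1.25, adjusted p = 0.026) or either K1 GSK2830371 library (adjusted p = 0.045 each). Without K1 nutlin library 2 the value was -0.52. The response to GSK2830371 differed for *SLC1A4* alone, weaker in K1 (-0.63, adjusted p = 0.04; over all genes 1.58% were lower and 0.597% higher), a call lost, at adjusted p of 0.053 to 0.13, without any 1 of the K1 DMSO, GSK2830371 and combination libraries, TPC1 DMSO library 3, or the TPC1 nutlin and GSK2830371 libraries. *SLC7A11* (-1.20, adjusted p = 0.062) and *SLC38A2* (-0.61, adjusted p = 0.054) just missed the threshold in the same direction, and both passed it without TPC1 DMSO library 1 (-1.59 and -0.72). *SLC7A11* also passed without either K1 nutlin library (adjusted p = 0.028 and 0.027), and *SLC38A2* without either TPC1 combination library (adjusted p = 0.047 and 0.042), without K1 GSK2830371 library 2 (-0.85, adjusted p = 0.014), by DESeq2 (adjusted p = 0.015) and with library size alone as scale (adjusted p = 0.048). With GC content and length offsets *SLC38A2* was at -0.29 (adjusted p = 0.2). No member was called higher in K1 for this response by edgeR or DESeq2, 4 of the 10 had a positive difference, and 1 of them had an unadjusted p under 0.05.

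For the combination against nutlin, 1 gene responded more in K1 and 2 less (edgeR; 2.56% of all genes each way). *SLC1A4* (-2.17 ± 0.19, adjusted p = 3.9e-06) and *SLC1A5* (-1.04, adjusted p = 0.00066) gained less in K1. *SLC1A4* started this comparison from 2.80 and 2.47 CPM in TPC1 and from 25.5 and 19 CPM in K1. *SLC1A1* gained more (1.01, adjusted p = 0.017), a call lost without TPC1 nutlin library 3 (adjusted p = 0.11), K1 nutlin library 1 (adjusted p = 0.069) or K1 combination library 2 (adjusted p = 0.06). For the other 7 genes no difference in this response was called. *SLC7A11* had a difference of -0.67 ± 0.36 (adjusted p = 0.29) and *SLC3A2* of 0.19 ± 0.11 (adjusted p = 0.32). *SLC7A11* became called without K1 nutlin library 2 (-1.11, adjusted p = 0.036) and *SLC6A9* likewise (-1.51, adjusted p = 0.0074). In the other direction *SLC7A5* (0.69, adjusted p = 0.29) became called higher in K1 without K1 nutlin library 1 (1.33, adjusted p = 0.024).

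**Figure D4:**
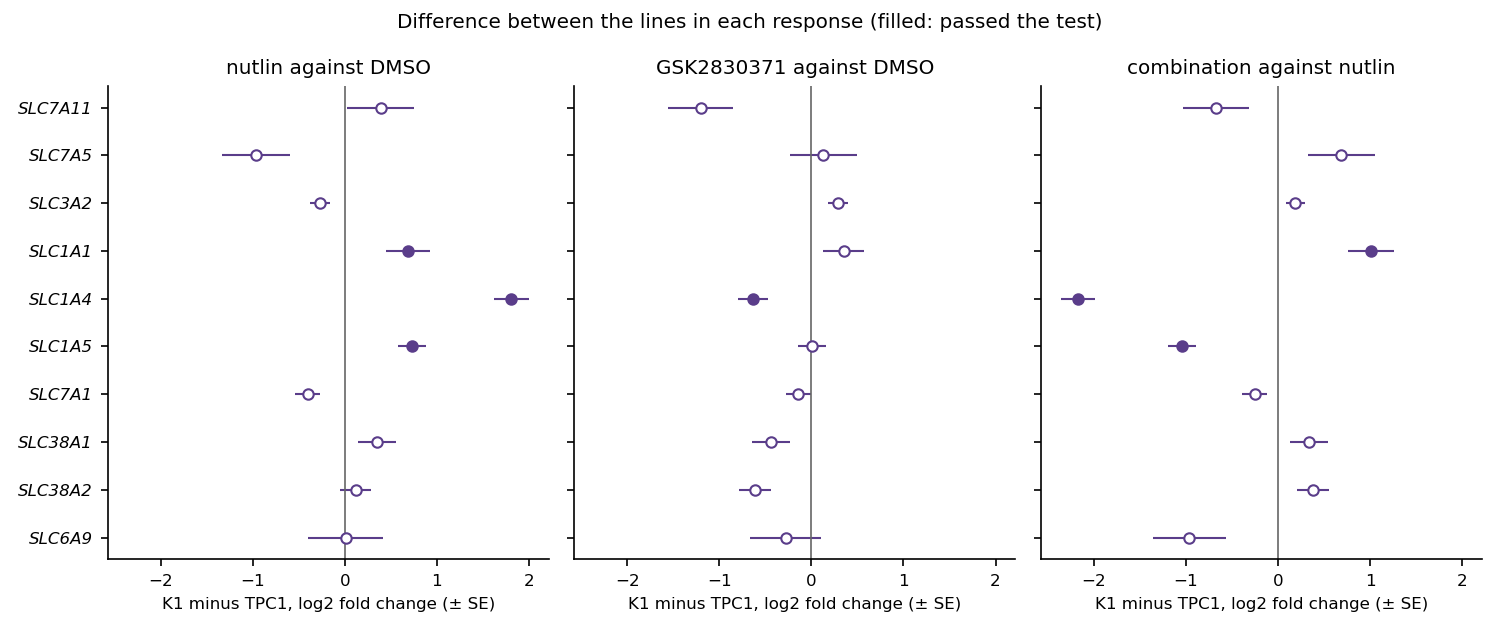
Difference in response between the lines, K1 minus TPC1, as log2 fold change with SE, for nutlin against DMSO, GSK2830371 against DMSO and the combination against nutlin. Filled points passed both thresholds. *SLC1A4* lies at 1.81, -0.63 and -2.17 in the 3 panels.

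The spread between the libraries of a group was uneven for these genes. In TPC1 the largest difference was that of *SLC7A11* in DMSO, 48.2 against 29.4 CPM, and group medians of the log2 difference between libraries 1 and 3 lay between 0.07 and 0.13. In K1 nutlin library 1 was above library 2 for 7 of the 10, by a median of 0.42 and at most 1.39 (*SLC6A9*, 12 against 4.58 CPM), and 7 of the 10 differed by more than the SD of all genes, as 24.6% of all genes did. Amino acid response genes went the same way, 29 of 34 being higher in library 1. In the K1 DMSO group the order was the other way round, with 7 of the 10 lower in library 1 and 7 of 34 response genes higher there. Differences beyond the SD of all genes were found for 8 of the 10 in that group, against 24.9% of all genes. The K1 GSK2830371 pair had 7 of the 10 beyond it, against 28% of all genes. The K1 combination libraries were closest, with 5 of the 10 higher in each.

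**Figure D5:**
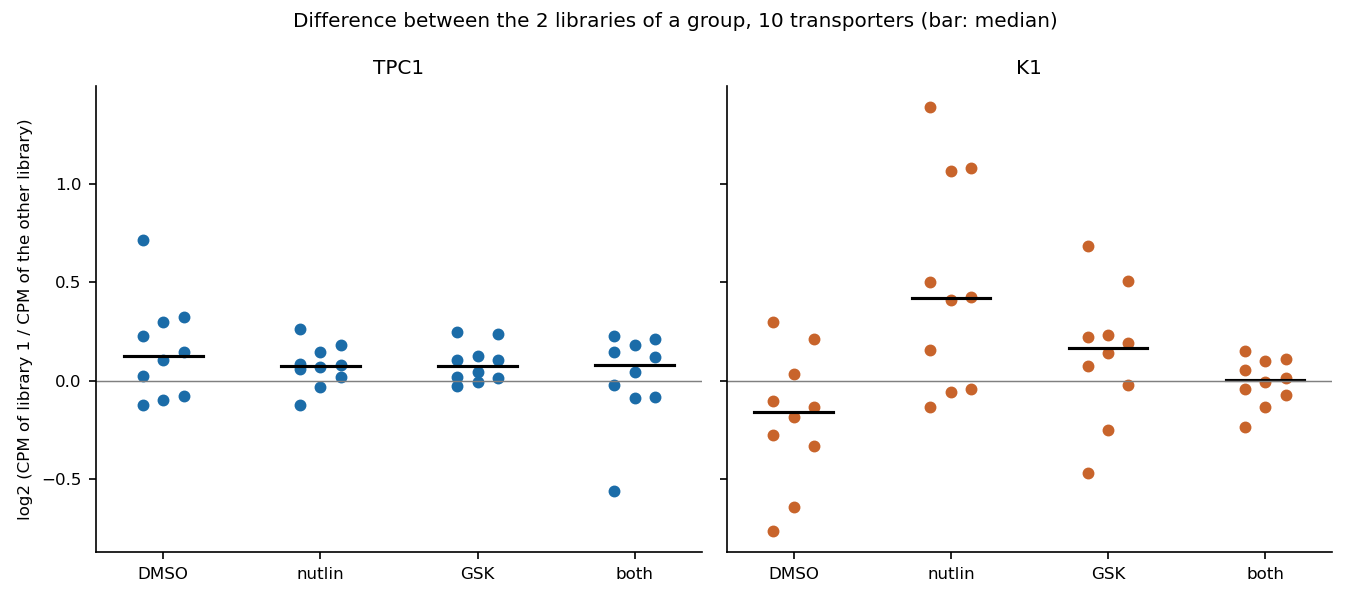
Log2 ratio of the CPM of library 1 to that of the other library of the same group for the 10 transporters, in TPC1 (left) and K1 (right). Points are genes and bars are medians, and the K1 nutlin pair spreads furthest, up to 1.39, with a median of 0.42.

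A bulk library does not separate a change of transcript level in every cell from a change in the share of cells that express it, and fewer cells of a kind cannot be told apart from less RNA per cell.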

How the data were processed

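Counts per gene symbol were analysed as the authors deposited them, raw and without normalization. Per the study's methods and the submitters' processing notes, reads were aligned to GRCh37 with TopHat2 2.0.13, reads of mapping quality under 10 were removed, and HTSeq 0.6.1 counted exons with the reverse-strand setting, so antisense reads were kept apart and reads shared by near-identical copies were lost. No sample column was left out. In TPC1, 4 columns numbered 3 fit no replicate label and were assigned to their group only, and libraries are named by column number.

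Genes above 0.1 CPM in at least 2 libraries were tested with edgeR 4.0.16 (TMM, quasi-likelihood test, all 8 libraries of a line in one fit, all 16 for the lines), with Benjamini-Hochberg adjustment over all genes tested. Comparisons within a line share control libraries. The members and gene lists were chosen with earlier results of these data known. Named genes are the 10 members, the regulators (1 is not reported here) and, per other list, up to 4 called genes with the largest change and a mean of at least 5 CPM, plus the 3 genes most like each member. Members were placed with a GENCODE annotation on GRCh37; 22717 of 25369 symbols (89.5%) matched. Same-numbered TPC1 libraries deviated together (correlations 0.518 to 0.724 over 12318 genes and 6 pairs of treatments), so their numbers were taken to pair them. The main fits did not use this pairing, which entered only through the replicate block among the alternatives. The fit was tested on simulated data. Alternatives were other scalings (DESeq2 1.42.0 size factors, library size), other filters, DESeq2's test, only the groups compared, a replicate block, offsets for GC content and length, and leaving out each library.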

Additional observations from a re-analysis of the deposited data

Results flagged for a closer look

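Responses that differed between the lines by the test of the difference itself (edgeR, K1 minus TPC1, on the log2 scale) were noted for a closer look. For nutlin against DMSO these were *SLC1A4* (1.81), *SLC1A5* (0.73), *SLC1A1* (0.69) and *SLC7A1* (-0.40, under the fold threshold), and for GSK2830371 against DMSO *SLC1A4* (-0.63). For the combination against nutlin they were *SLC1A4* (-2.17), *SLC1A5* (-1.04) and *SLC1A1* (1.01). The nutlin libraries enter both the first and the last of these comparisons, so the values are not independent of each other. With 2 libraries a group, no single library could be tested as an outlier.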

How the results depend on the processing

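Of 2460 values of single genes under an alternative, 2278 kept their direction and stayed called or uncalled. A further 75 lost a call, 63 gained one, 44 uncalled values changed sign and 0 called values did. An uncalled value could cross a single threshold and still count among the 2278. Counts of the 10 genes moved by more than 1.5 times in 46 of 492 alternatives, and the cause was not tested. For the TPC1 interaction, 1 gene was lowered in place of 0 with library size alone, no filter, GC content and length offsets, or the replicate block. The block also called *SLC7A11* after GSK2830371 in TPC1 and, in K1, *SLC7A5* after nutlin (-0.86, adjusted p = 0.026), and changed no other member's call. In K1 the same-numbered libraries did not deviate together (correlations -0.387 to 0.408 over 12531 genes), so there the numbers are only numbers. GC content and length offsets, which 95% and 94.6% of tested genes allowed, left 1 gene raised by GSK2830371 in K1 in place of 2. Between the lines, no filter gave 1 gene lowered for the nutlin response in place of 0, 3 for the GSK2830371 response in place of 1, and 2 raised and 4 lowered for the combination against nutlin in place of 1 and 2. The GSK2830371 response had 2 lowered with library size alone or by DESeq2. Scaling by size factors or by library size moved the median of all genes by under 0.1 on the log2 scale in every comparison.

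Leaving out single libraries gave these ranges of counts. In TPC1 the combination lowered 1 to 2 against DMSO, and the interaction raised 3 to 5 and lowered 0 to 1. In K1 nutlin lowered 2 to 7, GSK2830371 raised 1 to 2, the combination raised 5 to 9 against nutlin, and the interaction raised 1 to 8. Between the lines, 1 to 2 were higher in DMSO. The nutlin response was higher for 1 to 3 and lower for 0 to 1, the GSK2830371 response lower for 0 to 3, and the combination against nutlin higher for 0 to 1 and lower for 2 to 4. A group left with 1 library was assumed to vary like the others. With 2 libraries a group, differences near the fold threshold and genes with few counts such as *SLC1A1* are the least certain.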
